A study of Homo sapiens with 24 samples.

Results

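The genes described here are 56 genes of DNA replication and of the passage from G1 into S phase, listed by symbol and looked up by Ensembl identifier among the 19702 genes of the count table. All 56 were found and all passed the filter on low counts in both lines. They were grouped by role into licensing of origins (11 genes), activation of the replicative helicase and fork protection (11), elongation of DNA (21), supply of nucleotides (4), chromatin and maintenance methylation (5) and G1-S control (4). RNA was sequenced from PC9 and H1975, both established from human lung adenocarcinoma and both with an EGFR gene, for a growth factor receptor, that is mutated to an active form. Each line was kept for 24 h under the combination of both drugs, under almonertinib, a covalent inhibitor of mutant EGFR, under paclitaxel, which stabilises microtubules, or as a control, with 3 libraries in each of the 8 groups. As single drugs, almonertinib was given at 2 nM to PC9 and at 1 nM to H1975, and paclitaxel at 0.3 nM to PC9 and at 1 nM to H1975. The labels give no separate doses for the combination and name no vehicle for the control. Each line is 1 cell line, so results hold for that line and its dose. Whether the 3 libraries of a group stem from separate cultures is not stated in the labels. The p-values therefore cover the spread among libraries alone, and that spread may be technical.

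In G1, the origin recognition complex (ORC), CDC6 and CDT1 load the MCM helicase on DNA, which licenses origins for a single round of replication. In S phase the kinase CDC7-DBF4 and CDC45, GINS and MCM10 switch the helicase on, and DNA polymerases copy both strands behind it with the sliding clamp PCNA. Many of these genes are targets of E2F transcription factors, which are released when CDK4/6 and CDK2 phosphorylate RB, a step that growth factor signalling drives through cyclin D.

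Library totals ran from 14232299 to 24245314 counts, and the 24 libraries detected 13780 to 14502 genes. Over all libraries the members had 1540 to 291337 raw counts each. Levels are given as CPM, counts scaled by the library's total and its TMM factor, and a change is given as a log2 fold change ± a rough standard error. The marker genes EPCAM, KRT7, KRT8, KRT18, CDH1 and EGFR were expressed in both lines, but of the alveolar markers NKX2-1 was at 0.156 to 1.82 CPM in PC9 and 34 to 84.3 CPM in H1975, and NAPSA was low in both, at 0.467 to 1.56 CPM in PC9 and 0.391 to 5.1 CPM in H1975. Of the markers of other cells COL3A1, PTPRC, CD3E and PECAM1 were at or near 0 (up to 0.559 CPM), and COL1A1 was at 5.59 to 22.6 CPM in both lines. Some libraries stood apart from their group mates in the trend of their genes with transcript GC content. These were almonertinib library 1, control library 3 and paclitaxel library 1 in H1975, and almonertinib library 3 in PC9. Smaller departures in the Spearman correlation with GC content were seen in the combination groups. Library 2 in PC9 had −0.0157 against 0.31 and 0.339, and library 3 in H1975 had −0.188 against 0.16 and 0.155. Values without the libraries first named are given beside some of the results that they change. Counts of called members without them are given in the last section. Leaving out libraries that stood apart narrows the spread by construction.

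RefSeq promoter windows, 250 bases before to 50 after the annotated start (GRCh38.p14), were matched by symbol for 48 of the 56 genes. They were searched on both strands for 4 words of the E2F site, TTTCCCGC, TTTCGCGC, TTTGCCGC and TTTGGCGC, and a match of one word could share bases with a match of another. A word was present in 23 of the 48 windows (47.9%), in 5.33% of the windows of 10347 genes tested in PC9 and in 3.31% of 35116 RefSeq windows of that length. The word CCAAT was present in 26 of the 48 (54.2%) and in 34.6% of all windows, and the word TTTGAA, the core of the cell cycle homology region, in 2 of the 48 (4.17%) and 15.2%. Stretches of 7 windows are printed here, those of the genes with values in every library below whose E2F word lies, with the bases printed beside it, upstream of the start. They show 1 gene or more of licensing, helicase activation, elongation, nucleotide supply and G1-S control. Each reads 5′ to 3′ in the direction of its gene, with 1 word in capitals. The E2F1 stretch holds another word, TTTGGCGC, which is left in lower case.
MCM7: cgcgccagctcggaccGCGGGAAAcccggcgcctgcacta
CDT1: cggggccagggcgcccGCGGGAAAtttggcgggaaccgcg
GINS2: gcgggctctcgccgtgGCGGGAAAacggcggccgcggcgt
PCNA: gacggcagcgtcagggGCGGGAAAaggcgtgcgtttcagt
TYMS: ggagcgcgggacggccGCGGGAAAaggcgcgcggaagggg
E2F1: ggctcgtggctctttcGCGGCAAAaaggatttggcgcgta
CDC25A: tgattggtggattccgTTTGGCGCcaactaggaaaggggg
These lie at chr7:100101561-100101600 (minus strand), chr16:88803738-88803777 (plus), chr16:85688962-85689001 (minus), chr20:5126658-5126697 (minus), chr18:657598-657637 (plus), chr20:33686395-33686434 (minus) and chr3:48188438-48188477 (minus). Between the word and the start annotated by RefSeq there were 179 bases in MCM7, 27 in CDT1, 23 in GINS2, 51 in PCNA, 31 in TYMS, 25 in E2F1 and 36 in CDC25A. The GENCODE annotation, used here for transcript length, differs. Its outer gene bounds enclose the stretches of MCM7, CDT1 and GINS2, and those of TYMS and E2F1 begin within the stretch. Upstream thus refers to the RefSeq start alone. The capitals of CDC25A read TTTGGCGC on the gene's own strand, and those of MCM7, CDT1, GINS2, PCNA, TYMS and E2F1 are words read on the opposite strand.

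In PC9 the replication genes fell broadly under the combination and under almonertinib, and were mixed under paclitaxel. Under the combination 49 of the 56 fell and 1 rose, with a median log2 fold change of −0.90, while 50.7% of all genes tested were called (26% lower and 24.7% higher). Called means an edgeR adjusted p under 0.05 over all genes tested. Under almonertinib 38 fell and 3 rose, with a median of −0.58, where 56.7% of all genes were called (27.8% lower and 28.9% higher). Under paclitaxel 22 rose and 6 fell, with a median of 0.14, where 55% of all genes were called (27% higher and 28% lower). The share of members called under paclitaxel was thus close to that of all genes. Counts by role and by promoter word given below for these comparisons are to be set against the same shares of all genes. In bulk RNA, fewer cells in S phase and less RNA per cell cannot be told apart. These 3 comparisons share the control libraries. With the repeat number as a block PRIM2 was also called under almonertinib (−0.37, adjusted p = 0.0287), and GINS1 (−0.32, adjusted p = 0.0148) and MCM3 (0.23, adjusted p = 0.0405) under paclitaxel.

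In H1975 none of the 56 was called against control in the edgeR fit of that line's 12 libraries. That held under the combination (2.46% of all genes called, 1.77% higher and 0.697% lower; members' median −0.13), under almonertinib (1.95% called, 1.35% higher and 0.599% lower; median −0.11) and under paclitaxel (0.64% called, 0.446% higher and 0.194% lower; median −0.12). At an unadjusted p under 0.05 there were 7, 0 and 1 members in these comparisons, against 2300, 1283 and 1007 of all 12345 genes tested. DESeq2 called 2, 0 and 0 members, and the share of all genes that it called is not given here. Other edgeR fits called members under the combination, 9 with length and GC offsets (14.2% of all genes), 8 with the libraries of the compared groups alone (15.9%) and 3 in the fit of all 24 libraries (9.4%). Without almonertinib library 1, which stood apart, 6 members were called under the combination, 5 of them lower, where 11.8% of all genes were, and 1 under almonertinib, where 7.28% of all genes were. Without control library 3, 1 was called under the combination (3.37% of all genes). The spread between H1975 libraries was wider than in PC9, with a biological coefficient of variation of 0.191 in H1975 against 0.111 in PC9.

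**Figure D1:**
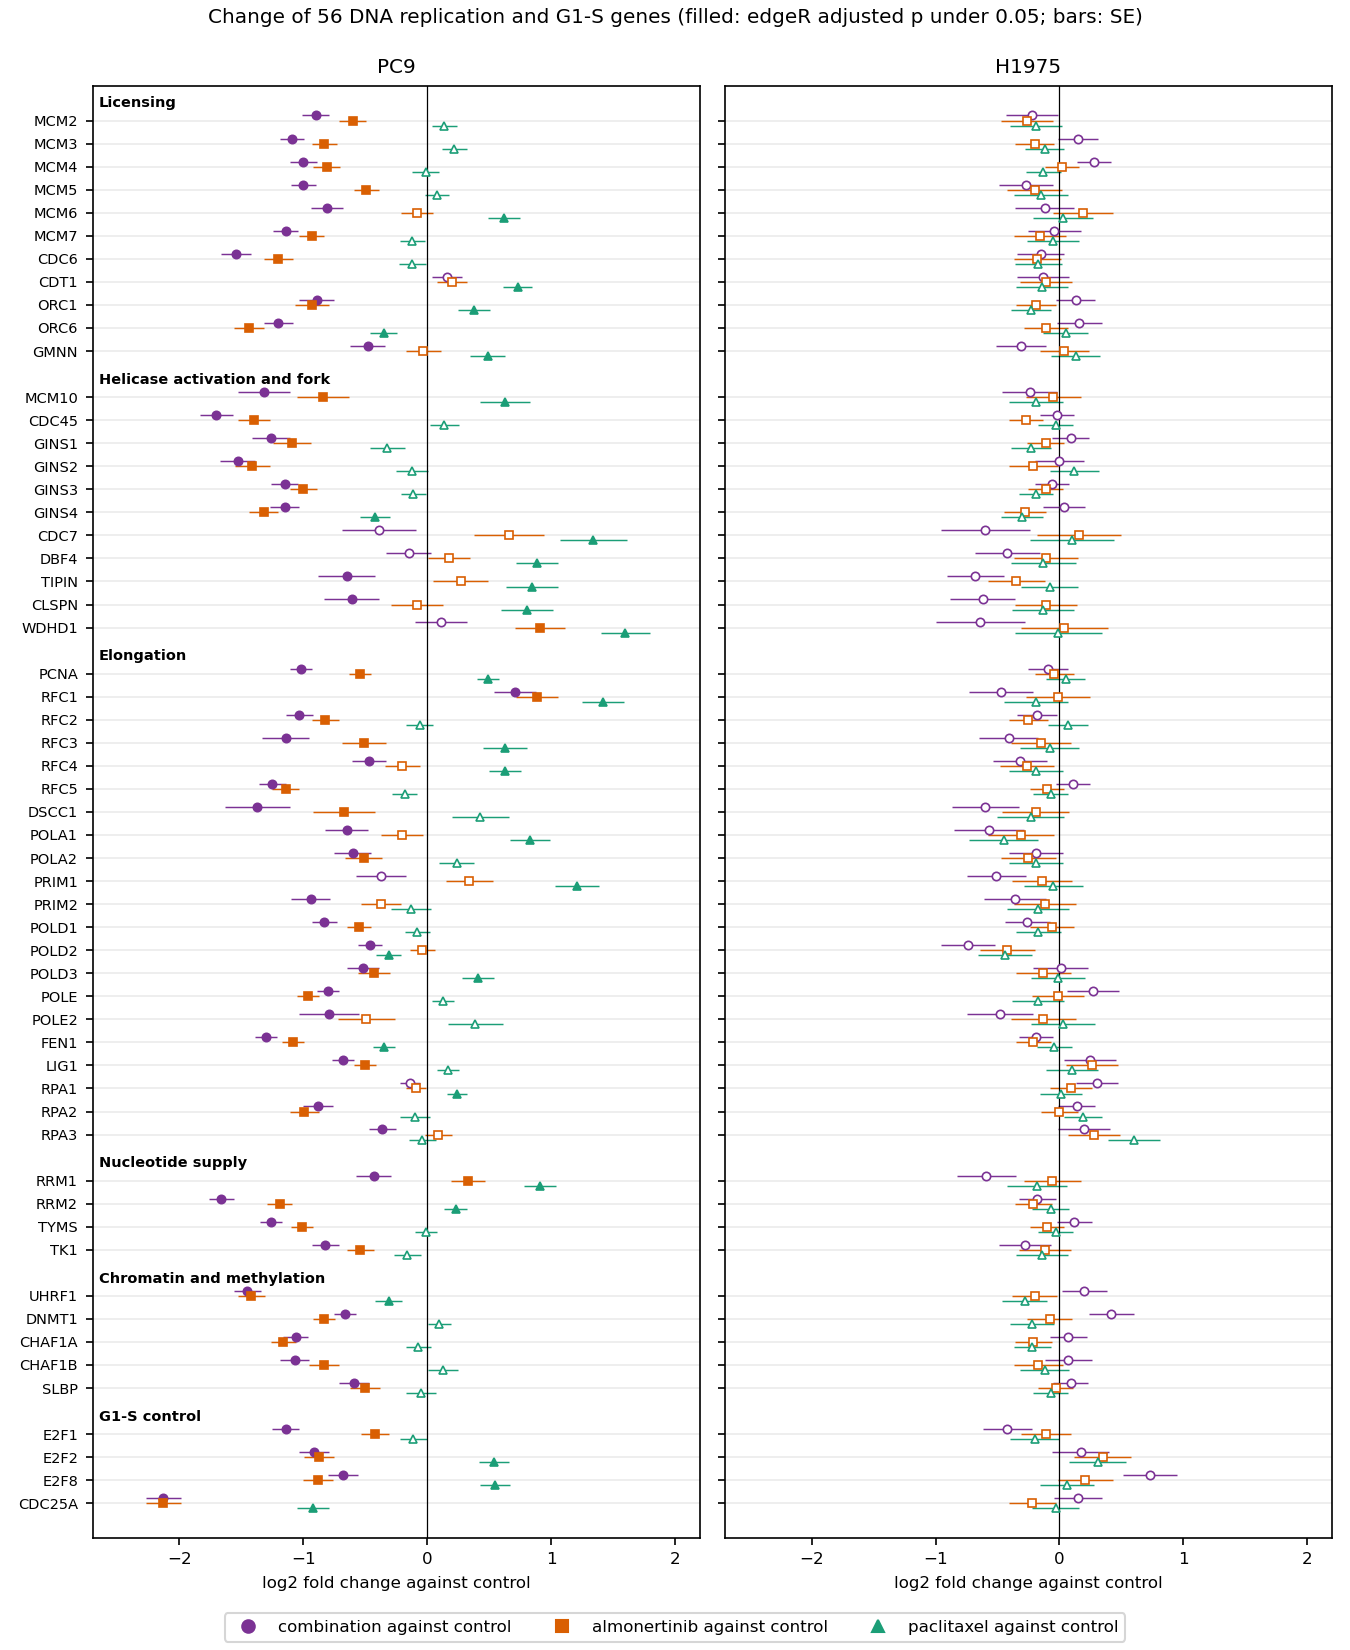
Log2 fold change against control (x axis) of the 56 genes, grouped by role, in PC9 (left) and H1975 (right), for the combination (circles), almonertinib (squares) and paclitaxel (triangles). Bars are rough standard errors and filled symbols passed an edgeR adjusted p of 0.05. In PC9 the circles and squares lie mostly left of 0 and down to −2.13 for CDC25A, the triangles lie on both sides, and in H1975 no symbol is filled.

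Licensing genes fell in PC9 under both treatments with almonertinib. Of the 11, 10 fell under the combination and 8 under almonertinib, and none rose. The MCM helicase subunit gene MCM2 had 134, 134 and 117 CPM in the combination libraries, 147, 150 and 179 in the almonertinib libraries, 257, 256 and 284 in the paclitaxel libraries and 272, 213 and 237 in the control libraries in PC9. The combination libraries were the lowest, the almonertinib libraries came next, and the paclitaxel and control libraries overlapped. MCM2 changed by −0.90 ± 0.11 in the combination, −0.60 ± 0.11 under almonertinib and 0.14 ± 0.10 under paclitaxel (adjusted p = 3.65e-06, 0.000153 and 0.259). MCM2 in H1975 had 358, 324 and 316 CPM in the combination libraries, 447, 306 and 217 in the almonertinib libraries, 368, 328 and 326 in the paclitaxel libraries and 394, 434 and 333 in the control libraries, and all 4 groups overlapped. MCM4, a second subunit gene, had 58.5, 59.9 and 57.4 CPM in the combination libraries, 72.3, 68.2 and 59.9 in the almonertinib libraries, 125, 107 and 116 in the paclitaxel libraries and 138, 111 and 103 in the control libraries in PC9. Again each treatment with almonertinib lay wholly below the control libraries, and MCM4 changed by −1.0 ± 0.11 in the combination, −0.81 ± 0.11 under almonertinib and −0.01 ± 0.11 under paclitaxel (adjusted p = 1.41e-06, 8.54e-06 and 0.914). For MCM4 in H1975 the values were 203, 203 and 188 CPM in the combination libraries, 162, 178 and 158 in the almonertinib libraries, 164, 148 and 136 in the paclitaxel libraries and 148, 164 and 179 in the control libraries. There the combination libraries lay above all others, at 0.28 ± 0.14 against control, which was not called (adjusted p = 0.314). Without the 3 H1975 libraries that stood apart this change of MCM4 was called (0.34, adjusted p = 0.00966).

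MCM7, which with MCM4 and MCM6 forms the core of the helicase ring, had 205, 200 and 196 CPM in the combination libraries, 208, 223 and 268 in the almonertinib libraries, 402, 395 and 423 in the paclitaxel libraries and 476, 415 and 437 in the control libraries in PC9. All combination libraries lay under the lowest almonertinib library. MCM7 changed by −1.14 ± 0.10 in the combination, −0.93 ± 0.10 under almonertinib and −0.12 ± 0.10 under paclitaxel (adjusted p = 1.4e-07, 7.95e-07 and 0.294). In the H1975 libraries MCM7 had 996, 898 and 896 CPM in the combination libraries, 1161, 786 and 619 in the almonertinib libraries, 952, 933 and 896 in the paclitaxel libraries and 994, 1058 and 818 in the control libraries, and the almonertinib libraries spanned the range of all other groups. MCM3 and MCM5 moved like these, at −1.09 and −1.0 under the combination in PC9. MCM6 fell under the combination (−0.81 ± 0.13), was at −0.08 ± 0.13 under almonertinib, which was not called, and rose under paclitaxel (0.62 ± 0.13). MCM7 shares 8.94% of its exon bases with AP4M1 on the opposite strand, and the strand that was counted is not given in the sources used here.

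The loading factors parted from one another. CDC6, the ATPase that helps ORC to load MCM, had 8.42, 10.4 and 8.92 CPM in the combination libraries, 12.1, 11.7 and 11.3 in the almonertinib libraries, 23.2, 24.8 and 26.2 in the paclitaxel libraries and 30.2, 25 and 25.6 in the control libraries in PC9. It was lowest in the combination and next under almonertinib, and the paclitaxel and control libraries overlapped. CDC6 changed by −1.54 ± 0.12 in the combination, −1.20 ± 0.12 under almonertinib and −0.12 ± 0.11 under paclitaxel (adjusted p = 4.81e-08, 3.61e-07 and 0.366). CDC6 in H1975 had 35.6, 38 and 37.7 CPM in the combination libraries, 23.2, 41.8 and 43.5 in the almonertinib libraries, 35.9, 39.5 and 34.2 in the paclitaxel libraries and 40.9, 39.5 and 43 in the control libraries, with the combination libraries just under the controls (−0.15 ± 0.19, not called). CDT1, the other loading factor, which is destroyed in S phase, had 203, 204 and 193 CPM in the combination libraries, 188, 172 and 254 in the almonertinib libraries, 278, 285 and 322 in the paclitaxel libraries and 193, 167 and 175 in the control libraries in PC9. The paclitaxel libraries were above all others, the combination libraries were at or above the highest control, and the almonertinib libraries overlapped the controls. CDT1 changed by 0.16 ± 0.12 in the combination, 0.20 ± 0.12 under almonertinib and 0.73 ± 0.12 under paclitaxel (adjusted p = 0.268, 0.167 and 0.000142) and is the only licensing gene that did not fall under the combination. For CDT1 in H1975 the values were 225, 225 and 216 CPM in the combination libraries, 316, 181 and 181 in the almonertinib libraries, 216, 221 and 227 in the paclitaxel libraries and 275, 264 and 191 in the control libraries, and the groups overlapped.

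GMNN encodes geminin, which blocks CDT1 outside G1. It had 8.37, 9.15 and 9.31 CPM in the combination libraries, 12.4, 13.9 and 10.3 in the almonertinib libraries, 18.3, 17 and 17.2 in the paclitaxel libraries and 14.1, 12.9 and 10.4 in the control libraries in PC9. The combination libraries lay under the controls and the paclitaxel libraries above them, and the almonertinib libraries overlapped the controls. GMNN changed by −0.48 ± 0.14 in the combination, −0.03 ± 0.14 under almonertinib and 0.49 ± 0.14 under paclitaxel (adjusted p = 0.0102, 0.849 and 0.00774). The fall under the combination was no longer called without control library 1 (−0.38, adjusted p = 0.0582). GMNN in H1975 had 11.8, 14.2 and 10.7 CPM in the combination libraries, 11.5, 18.4 and 16.5 in the almonertinib libraries, 15.3, 17.7 and 16.8 in the paclitaxel libraries and 15.1, 12.7 and 17.5 in the control libraries, and the combination overlapped the controls. Of the ORC subunit genes, ORC6 fell by −1.20 under the combination, −1.44 under almonertinib and −0.35 under paclitaxel. ORC1 fell under the combination and almonertinib (−0.89 and −0.93) and rose under paclitaxel (0.38). Under paclitaxel the call of ORC6 ended without control library 1 or paclitaxel library 1 or 3 (−0.31, adjusted p = 0.0508; −0.31, adjusted p = 0.0641; −0.32, adjusted p = 0.0523). The call of ORC1 ended without control library 2 (0.24, adjusted p = 0.126) or 3 (0.33, adjusted p = 0.0812) or paclitaxel library 1 (0.36, adjusted p = 0.0593).

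Of the 11 genes of helicase activation and fork protection, 8 fell and 0 rose under the combination in PC9, and 6 fell and 1 rose under almonertinib. CDC45, which joins MCM and GINS to form the active helicase, had 10.1, 12 and 12.2 CPM in the combination libraries, 11.8, 14 and 16.2 in the almonertinib libraries, 36.5, 43.1 and 42.7 in the paclitaxel libraries and 41.4, 34.2 and 35.5 in the control libraries in PC9. Both treatments with almonertinib lay at less than the lowest paclitaxel or control library, and the combination and almonertinib libraries overlapped. CDC45 changed by −1.70 ± 0.13 in the combination, −1.40 ± 0.13 under almonertinib and 0.14 ± 0.12 under paclitaxel (adjusted p = 4.72e-08, 1.73e-07 and 0.349). In the H1975 libraries CDC45 had 90.9, 87.1 and 88.7 CPM in the combination libraries, 82.5, 76.4 and 64.5 in the almonertinib libraries, 87, 85.9 and 90.5 in the paclitaxel libraries and 88, 98.7 and 83 in the control libraries. There the almonertinib libraries were under all others, at −0.27 ± 0.14, which was not called (adjusted p = 0.547). Without the 3 H1975 libraries that stood apart this change of CDC45 was called (−0.41, adjusted p = 0.00583). GINS2, a GINS subunit gene, had 8.47, 9.15 and 8.78 CPM in the combination libraries, 8.28, 9.65 and 10.6 in the almonertinib libraries, 24.7, 23.2 and 22.2 in the paclitaxel libraries and 30.5, 22.7 and 22.7 in the control libraries in PC9. GINS2 was low in all 6 libraries that received almonertinib and changed by −1.53 ± 0.14 in the combination, −1.41 ± 0.14 under almonertinib and −0.12 ± 0.13 under paclitaxel (adjusted p = 2.38e-07, 2.91e-07 and 0.463). GINS2 in H1975 had 71.1, 63.6 and 72.7 CPM in the combination libraries, 80.3, 57.2 and 41.1 in the almonertinib libraries, 71.8, 80.1 and 72.2 in the paclitaxel libraries and 67.6, 78.8 and 60.4 in the control libraries, and the groups overlapped. GINS1, GINS3 and GINS4 fell by −1.26, −1.15 and −1.15 under the combination, and MCM10, which helps the helicase to start, by −1.32. GINS4 also fell under paclitaxel (−0.42; −0.30, adjusted p = 0.0504 without control library 1), while MCM10 rose there (0.63, but 0.43, adjusted p = 0.075 without control library 3).

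CDC7 and DBF4, the kinase and its activator, were not called under the combination (−0.39 ± 0.30 and −0.15 ± 0.18) or almonertinib (0.66 ± 0.28 and 0.18 ± 0.17). The CDC7 value under almonertinib was close to the threshold (adjusted p = 0.0531) and passed it with the repeat number as a block (0.67, adjusted p = 0.0217). Both rose under paclitaxel, CDC7 by 1.34 ± 0.27 and DBF4 by 0.89 ± 0.17. TIPIN, which with TIMELESS forms a complex that protects stalled forks, had 1.47, 2.38 and 1.99 CPM in the combination libraries, 4.01, 4.05 and 3.02 in the almonertinib libraries, 5.01, 5.92 and 5.66 in the paclitaxel libraries and 3.65, 3.16 and 2.29 in the control libraries in PC9. The values were low, with 31, 52 and 41 raw counts in the combination libraries and 70, 47 and 33 in the controls. The paclitaxel libraries were above all others and the combination libraries overlapped the controls at their upper end. TIPIN changed by −0.65 ± 0.23 in the combination, 0.27 ± 0.22 under almonertinib and 0.85 ± 0.21 under paclitaxel (adjusted p = 0.0269, 0.293 and 0.00274). The fall under the combination was not called without control library 1 (−0.48, adjusted p = 0.142) or 2 (−0.63, adjusted p = 0.0625) or without combination library 1 (−0.48, adjusted p = 0.122) or 3 (−0.66, adjusted p = 0.0549).

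TIPIN in H1975 had 4.26, 4.18 and 3.93 CPM in the combination libraries, 3.21, 5.51 and 6.67 in the almonertinib libraries, 5.6, 6.52 and 6.65 in the paclitaxel libraries and 6.71, 5.99 and 7.13 in the control libraries. All combination libraries there were under all controls, at −0.68 ± 0.23, which was not called with every library (adjusted p = 0.138) and was called without almonertinib library 1 (−0.68 ± 0.16, adjusted p = 0.0153). CLSPN encodes claspin, which carries the replication checkpoint signal. It had 5.14, 6 and 3.88 CPM in the combination libraries, 8.69, 7.75 and 5.2 in the almonertinib libraries, 11.6, 13.9 and 14.6 in the paclitaxel libraries and 9.27, 7.65 and 5.84 in the control libraries in PC9. The paclitaxel libraries were the highest, and 1 combination library reached the lowest control. CLSPN changed by −0.61 ± 0.22 in the combination, −0.08 ± 0.21 under almonertinib and 0.81 ± 0.21 under paclitaxel (adjusted p = 0.0279, 0.757 and 0.0036). The fall under the combination was not called without control library 1 (−0.43, adjusted p = 0.157) or 2 (−0.61, adjusted p = 0.0577) or combination library 1 (−0.63, adjusted p = 0.0577) or 3 (−0.46, adjusted p = 0.122). In H1975 CLSPN had 5.99, 6.4 and 7.36 CPM in the combination libraries, 5.31, 12.1 and 10.6 in the almonertinib libraries, 10.2, 9.57 and 8.11 in the paclitaxel libraries and 10.1, 8.34 and 11.9 in the control libraries, and the combination libraries were under the controls (−0.62 ± 0.26, adjusted p = 0.211; 0.0279 without almonertinib library 1). WDHD1, which links the helicase to polymerase alpha, had 4.99, 5.03 and 3.39 CPM in the combination libraries, 9.35, 7.71 and 6.42 in the almonertinib libraries, 13.9, 12.2 and 11.6 in the paclitaxel libraries and 4.17, 5.17 and 3.13 in the control libraries in PC9. It was higher in every almonertinib and paclitaxel library than in the controls, and the combination libraries overlapped the controls. WDHD1 rose by 0.91 ± 0.20 under almonertinib and 1.60 ± 0.20 under paclitaxel and was at 0.11 ± 0.21 in the combination. It is shown because few members rose under almonertinib, so it was chosen after its values were seen.

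**Figure D2:**
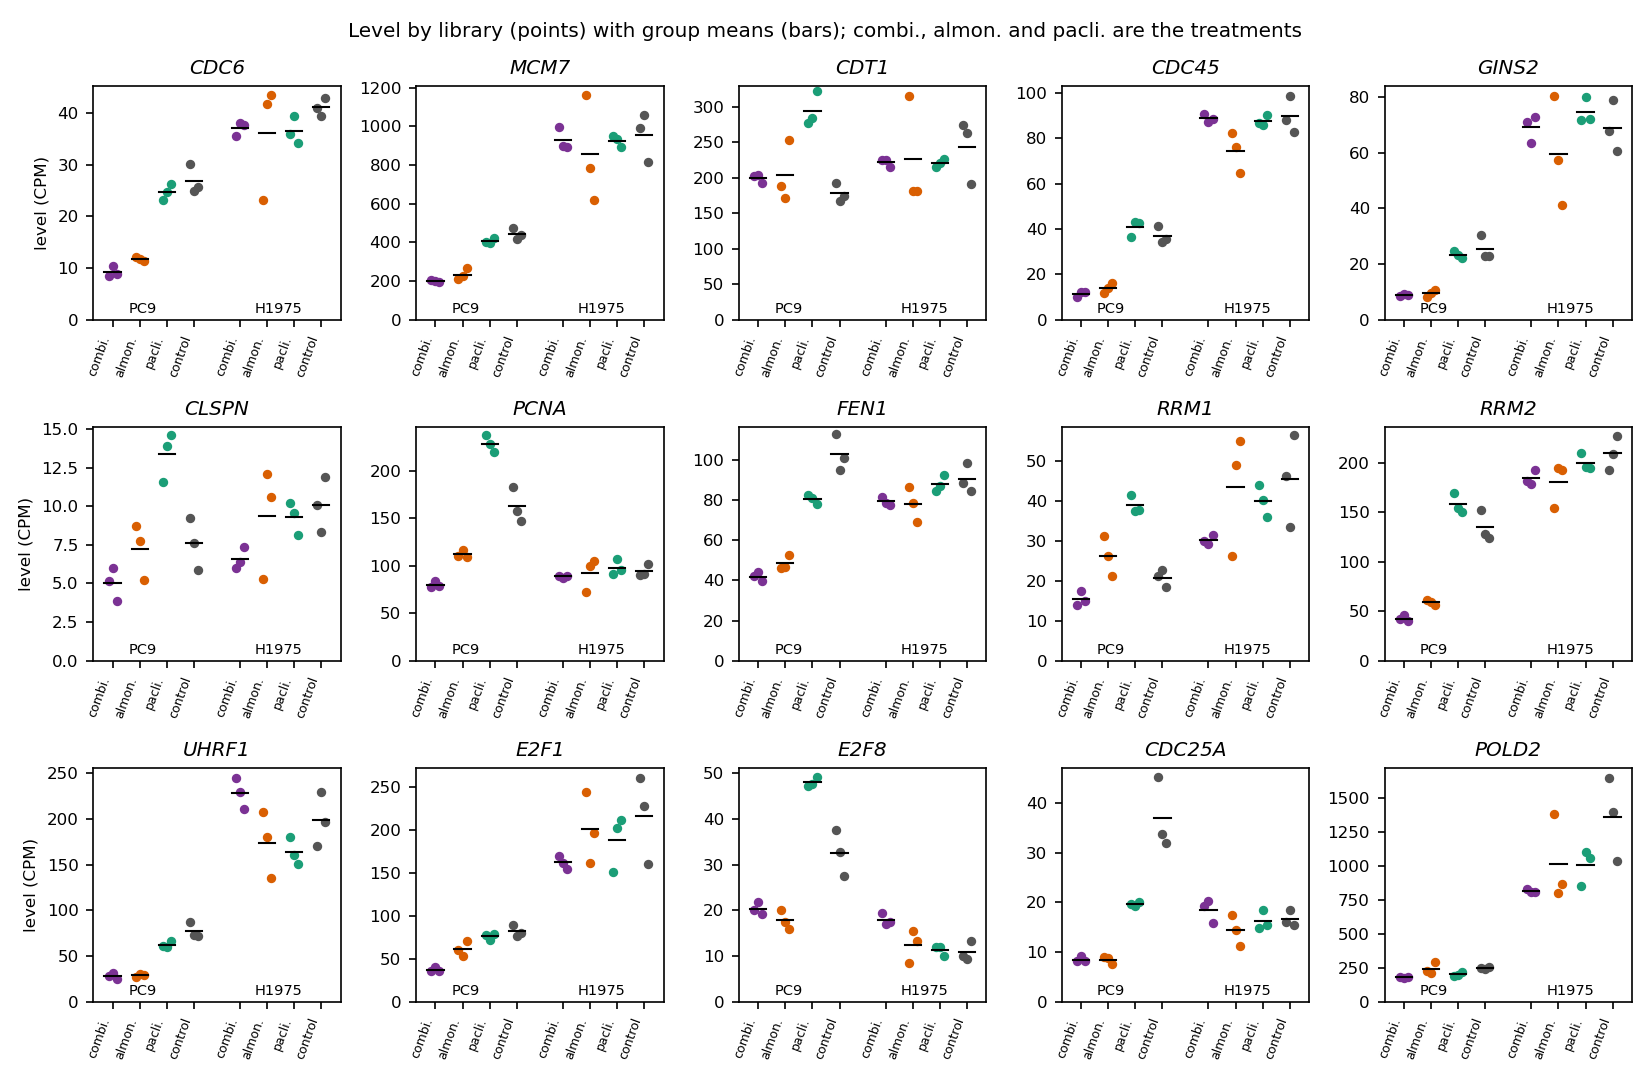
CPM (y axis, from 0) of 15 of the genes in each library (points) with group means (bars), in the order combination, almonertinib, paclitaxel and control, for PC9 and then H1975. CDC6 in PC9 runs from 8.42 to 12.1 CPM in the 6 libraries with almonertinib and from 23.2 to 30.2 CPM in the other 6.

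Elongation genes formed the largest group, and 18 of 21 fell under the combination in PC9 while 1 rose. Under almonertinib 12 fell and 1 rose, and under paclitaxel 2 fell and 8 rose. Of all genes tested 27.8% fell and 28.9% rose under almonertinib, and 28% fell and 27% rose under paclitaxel. PCNA, the sliding clamp, had 78, 83.8 and 78.2 CPM in the combination libraries, 110, 117 and 109 in the almonertinib libraries, 238, 228 and 220 in the paclitaxel libraries and 183, 158 and 147 in the control libraries in PC9. The 4 groups did not overlap, in the order combination, almonertinib, control and paclitaxel from low to high. PCNA changed by −1.02 ± 0.09 in the combination, −0.54 ± 0.09 under almonertinib and 0.49 ± 0.09 under paclitaxel (adjusted p = 1.86e-07, 8.46e-05 and 0.000262). PCNA in H1975 had 89.4, 87.3 and 89.5 CPM in the combination libraries, 72, 99.3 and 105 in the almonertinib libraries, 91, 107 and 96 in the paclitaxel libraries and 90.4, 91.2 and 102 in the control libraries, and the groups lay close together. RFC5, a subunit gene of the clamp loader, had 15.4, 18.8 and 16.8 CPM in the combination libraries, 17.2, 19.9 and 17.9 in the almonertinib libraries, 35.4, 35.5 and 36.5 in the paclitaxel libraries and 44.4, 36.7 and 40.1 in the control libraries in PC9. The 6 libraries with almonertinib lay between 15.4 and 19.9 CPM and the other 6 between 35.4 and 44.4 CPM. RFC5 changed by −1.25 ± 0.11 in the combination, −1.14 ± 0.11 under almonertinib and −0.18 ± 0.10 under paclitaxel (adjusted p = 1.39e-07, 1.96e-07 and 0.156). For RFC5 in H1975 the values were 40.5, 40.4 and 42.2 CPM in the combination libraries, 36.9, 36.7 and 32.7 in the almonertinib libraries, 38.1, 38.2 and 32.9 in the paclitaxel libraries and 34.3, 43.7 and 36.3 in the control libraries, with overlap of every treatment with the controls.

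The other loader subunits differed. RFC2 fell by −1.03 under the combination and −0.82 under almonertinib. RFC3 fell by −1.14 and −0.51 and rose by 0.63 under paclitaxel, but under almonertinib it was not called without almonertinib library 2 (−0.50, adjusted p = 0.0626) or 3 (−0.32, adjusted p = 0.0934) or control library 1 (−0.39, adjusted p = 0.122) or 2 (−0.48, adjusted p = 0.0689). RFC4 fell under the combination (−0.47 ± 0.14, but −0.31, adjusted p = 0.076 without control library 1), was at −0.20 ± 0.14 under almonertinib and rose under paclitaxel (0.63 ± 0.13). RFC1, the large subunit, was the 1 member that rose under the combination, and was chosen for that. It had 27.4, 36.9 and 30 CPM in the combination libraries, 43.5, 36.8 and 27 in the almonertinib libraries, 47.9, 55.2 and 51.6 in the paclitaxel libraries and 21.3, 22.1 and 14.4 in the control libraries in PC9, so that every treated library was above every control. RFC1 changed by 0.71 ± 0.17 in the combination, 0.89 ± 0.17 under almonertinib and 1.42 ± 0.17 under paclitaxel (adjusted p = 0.00297, 0.000371 and 9.79e-06). DSCC1, part of the alternative clamp loader that acts with CHTF18, had 1.14, 1.6 and 1.12 CPM in the combination libraries, 2.39, 2.28 and 1.6 in the almonertinib libraries, 4.97, 3.81 and 4.78 in the paclitaxel libraries and 4.32, 3.29 and 2.29 in the control libraries in PC9, on 24, 35 and 23 raw counts in the combination libraries and 83, 49 and 33 in the controls. DSCC1 was lowest in the combination, and the almonertinib libraries overlapped the lowest control. DSCC1 changed by −1.37 ± 0.26 in the combination, −0.67 ± 0.25 under almonertinib and 0.43 ± 0.23 under paclitaxel (adjusted p = 0.000428, 0.0285 and 0.122). Under almonertinib the call ended without almonertinib library 3 (−0.50, adjusted p = 0.0908) or control library 1 (−0.42, adjusted p = 0.201) or 2 (−0.69, adjusted p = 0.0526). DSCC1 in H1975 had 7.13, 6.4 and 8.68 CPM in the combination libraries, 5.59, 10.1 and 13.5 in the almonertinib libraries, 8.11, 10.2 and 10.3 in the paclitaxel libraries and 9.76, 9.82 and 14.1 in the control libraries, with the combination libraries under the controls (−0.60 ± 0.27, not called).

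Among the polymerases, POLE, the catalytic subunit of the leading strand polymerase, fell by −0.80 under the combination and −0.96 under almonertinib, and POLD1, that of the lagging strand polymerase, by −0.83 and −0.55. POLD2, the accessory subunit of the same polymerase, had 181, 175 and 183 CPM in the combination libraries, 225, 210 and 289 in the almonertinib libraries, 190, 194 and 216 in the paclitaxel libraries and 247, 243 and 253 in the control libraries in PC9. POLD2 was lowest in the combination and the almonertinib libraries overlapped the controls, with almonertinib library 3, which stood apart, above them. POLD2 changed by −0.46 ± 0.10 in the combination, −0.04 ± 0.10 under almonertinib and −0.31 ± 0.10 under paclitaxel (adjusted p = 0.00161, 0.779 and 0.0194). The fall under paclitaxel was not called without control library 3 (−0.29, adjusted p = 0.0572) or paclitaxel library 1 (−0.25, adjusted p = 0.0954) or 2 (−0.27, adjusted p = 0.0834). POLD2 in H1975 had 827, 809 and 804 CPM in the combination libraries, 1383, 802 and 868 in the almonertinib libraries, 854, 1101 and 1055 in the paclitaxel libraries and 1648, 1395 and 1033 in the control libraries. Its combination libraries lay under all controls, and almonertinib library 1 was far above the other 2. The change under the combination was −0.74 ± 0.22 (adjusted p = 0.0948), and without almonertinib library 1 it was −0.74 ± 0.17 (adjusted p = 0.0112). Without that library POLD2 was also called under almonertinib (−0.70 ± 0.19, adjusted p = 0.0348).

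POLA1, the catalytic subunit that starts each new strand, fell under the combination (−0.65 ± 0.17) and rose under paclitaxel (0.83 ± 0.16), and its partner POLA2 fell under the combination and almonertinib (−0.60 ± 0.15 and −0.51 ± 0.15). The primase genes were not alike: PRIM2 fell under the combination (−0.94 ± 0.16) and PRIM1 was at −0.37 ± 0.20, which was not called, and rose under paclitaxel (1.21 ± 0.18). POLD3 fell under the combination (−0.52 ± 0.13) and almonertinib (−0.43 ± 0.13, but −0.35, adjusted p = 0.0579 without control library 2) and rose under paclitaxel (0.41 ± 0.13, but 0.31, adjusted p = 0.0806 without control library 3). POLE2 fell under the combination (−0.79 ± 0.24), a call that ended without control library 1 (−0.70, adjusted p = 0.0508) or 2 (−0.67, adjusted p = 0.0511). PRIM1 shares 14.9% of its exon bases with another annotated gene on the same strand.

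FEN1, the nuclease that trims Okazaki fragments, had 42, 44 and 39.9 CPM in the combination libraries, 46.2, 46.9 and 52.9 in the almonertinib libraries, 82.8, 81 and 78.3 in the paclitaxel libraries and 113, 95 and 101 in the control libraries in PC9. The 6 libraries with almonertinib were the lowest, the paclitaxel libraries were intermediate and the controls were the highest, without overlap. FEN1 changed by −1.30 ± 0.09 in the combination, −1.08 ± 0.09 under almonertinib and −0.35 ± 0.09 under paclitaxel (adjusted p = 1.42e-08, 4.99e-08 and 0.0031). FEN1 in H1975 had 81.9, 78.8 and 77.8 CPM in the combination libraries, 86.9, 78.8 and 69.1 in the almonertinib libraries, 84.7, 87.4 and 92.9 in the paclitaxel libraries and 88.7, 98.7 and 84.7 in the control libraries, with the combination libraries just under the controls (−0.19 ± 0.14, not called). LIG1, which seals the fragments, fell by −0.68 under the combination and −0.50 under almonertinib. The single-strand binding protein genes were unequal. RPA2 fell by −0.88 and −0.99, RPA3 fell under the combination by −0.36 but was not called without combination library 2 (−0.28, adjusted p = 0.0813), and RPA1 was at −0.14 ± 0.08 and −0.09 ± 0.08, neither called.

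All 4 nucleotide supply genes fell under the combination in PC9, and 3 fell and 1 rose under almonertinib. The 1 that rose was RRM1, by a call that most fits without 1 library did not keep, as given below. RRM2, the regulated small subunit of ribonucleotide reductase, had 41.7, 46 and 39.9 CPM in the combination libraries, 60.8, 59.7 and 55.8 in the almonertinib libraries, 170, 154 and 150 in the paclitaxel libraries and 152, 128 and 124 in the control libraries in PC9. It was lowest in the combination, then under almonertinib, and both lay under the controls. RRM2 changed by −1.66 ± 0.10 in the combination, −1.19 ± 0.10 under almonertinib and 0.23 ± 0.09 under paclitaxel (adjusted p = 1.92e-09, 3.39e-08 and 0.0462). The rise under paclitaxel was small, and its call ended in 7 of the 12 fits that each left out 1 PC9 library, control libraries 2 (0.19, adjusted p = 0.149) and 3 (0.17, adjusted p = 0.196) and paclitaxel libraries 1 (0.19, adjusted p = 0.131) and 2 (0.27, adjusted p = 0.0543) among them. RRM2 in H1975 had 182, 179 and 193 CPM in the combination libraries, 154, 195 and 193 in the almonertinib libraries, 210, 196 and 195 in the paclitaxel libraries and 193, 209 and 227 in the control libraries, and all groups overlapped the controls or came close to them. RRM1, the large subunit of the same enzyme, had 13.8, 17.5 and 14.9 CPM in the combination libraries, 31.2, 26.2 and 21.2 in the almonertinib libraries, 41.5, 37.6 and 37.8 in the paclitaxel libraries and 21.3, 22.7 and 18.4 in the control libraries in PC9. The combination libraries were lowest, the paclitaxel libraries highest, and the almonertinib libraries overlapped the controls. RRM1 changed by −0.43 ± 0.14 in the combination, 0.33 ± 0.14 under almonertinib and 0.91 ± 0.13 under paclitaxel (adjusted p = 0.016, 0.0464 and 5.91e-05). The almonertinib call of RRM1 was just past the threshold, and it ended in 9 of the 12 fits that left out 1 PC9 library, down to 0.19, adjusted p = 0.245 without almonertinib library 1. The fall under the combination was not called without control library 2 (−0.37, adjusted p = 0.0668) or combination library 1 (−0.36, adjusted p = 0.0743). For RRM1 in H1975 the values were 30, 29.2 and 31.5 CPM in the combination libraries, 26.3, 49.1 and 55 in the almonertinib libraries, 44, 40.3 and 35.9 in the paclitaxel libraries and 46.3, 33.5 and 56.4 in the control libraries. The combination libraries were under all controls, at −0.59 ± 0.24 (adjusted p = 0.199, and 0.0268 without almonertinib library 1).

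TYMS, which makes thymidylate, had 29.7, 29.1 and 27.1 CPM in the combination libraries, 31.6, 33.9 and 37.2 in the almonertinib libraries, 70.4, 65.7 and 69.7 in the paclitaxel libraries and 74.4, 65.6 and 66.4 in the control libraries in PC9. Its combination libraries lay just under the almonertinib libraries, and both were at less than the controls and the paclitaxel libraries, which overlapped. TYMS changed by −1.26 ± 0.09 in the combination, −1.01 ± 0.09 under almonertinib and −0.01 ± 0.09 under paclitaxel (adjusted p = 2.27e-08, 1.31e-07 and 0.965). TYMS in H1975 had 100, 105 and 97.3 CPM in the combination libraries, 91.3, 91.6 and 77 in the almonertinib libraries, 87.8, 92.4 and 93.7 in the paclitaxel libraries and 87, 102 and 89.9 in the control libraries, and the combination overlapped the controls. TYMS shares 39.1% of its exon bases with ENOSF1 on the opposite strand, so reads of the pair cannot be told apart where strand is not used. TK1, the salvage kinase for thymidine, had 218, 206 and 205 CPM in the combination libraries, 239, 217 and 312 in the almonertinib libraries, 313, 317 and 365 in the paclitaxel libraries and 379, 356 and 379 in the control libraries in PC9. TK1 had the highest control level per length of the 56 in PC9, 221 CPM per kb, followed by MCM7 with 143 and PCNA with 120. It changed by −0.82 ± 0.11 in the combination, −0.54 ± 0.11 under almonertinib and −0.16 ± 0.11 under paclitaxel (adjusted p = 2.01e-05, 0.000766 and 0.235). TK1 in H1975 had 444, 425 and 423 CPM in the combination libraries, 664, 413 and 374 in the almonertinib libraries, 411, 513 and 503 in the paclitaxel libraries and 601, 554 and 415 in the control libraries, and the groups overlapped.

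All 5 chromatin genes fell under the combination and under almonertinib in PC9. UHRF1, which recognises hemimethylated DNA behind the fork, had 28.5, 31.4 and 24.5 CPM in the combination libraries, 26.5, 30.4 and 29.2 in the almonertinib libraries, 60.5, 59.8 and 66.3 in the paclitaxel libraries and 87.1, 72.6 and 71.5 in the control libraries in PC9. The libraries with almonertinib, alone or combined, lay in 1 range, the paclitaxel libraries came next and the controls were highest. UHRF1 changed by −1.45 ± 0.11 in the combination, −1.42 ± 0.11 under almonertinib and −0.31 ± 0.11 under paclitaxel (adjusted p = 3.41e-08, 2.06e-08 and 0.0201). The fall under paclitaxel was not called without control library 1 (−0.21, adjusted p = 0.116) or paclitaxel library 1 (−0.27, adjusted p = 0.0796) or 2 (−0.26, adjusted p = 0.0862). UHRF1 in H1975 had 245, 230 and 211 CPM in the combination libraries, 208, 180 and 135 in the almonertinib libraries, 180, 161 and 151 in the paclitaxel libraries and 171, 230 and 197 in the control libraries, with the combination overlapping the controls. DNMT1, the maintenance methyltransferase, had 96.6, 102 and 90.3 CPM in the combination libraries, 87, 90.5 and 80.3 in the almonertinib libraries, 165, 150 and 177 in the paclitaxel libraries and 164, 143 and 151 in the control libraries in PC9. Here 2 of the 3 combination libraries lay above the highest almonertinib library, and all 6 were under the controls. DNMT1 changed by −0.66 ± 0.09 in the combination, −0.83 ± 0.09 under almonertinib and 0.10 ± 0.09 under paclitaxel (adjusted p = 1.66e-05, 1.21e-06 and 0.346). In H1975 DNMT1 had 252, 223 and 222 CPM in the combination libraries, 185, 178 and 132 in the almonertinib libraries, 177, 149 and 122 in the paclitaxel libraries and 148, 194 and 180 in the control libraries. The combination libraries were above all others, at 0.42 ± 0.18 against control (adjusted p = 0.233) and 0.64 ± 0.18 against paclitaxel (adjusted p = 0.125, and 0.0358 without almonertinib library 1). Without the 3 H1975 libraries that stood apart DNMT1 was called against control (0.44, adjusted p = 0.021) and against paclitaxel (0.78, adjusted p = 0.000724).

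CHAF1A, the large subunit of the chromatin assembly factor that deposits histones at the fork, had 26.2, 30.1 and 24.7 CPM in the combination libraries, 25.5, 25.2 and 25.3 in the almonertinib libraries, 55.3, 51.5 and 54.7 in the paclitaxel libraries and 61.6, 50.2 and 57.1 in the control libraries in PC9. The almonertinib libraries lay within the range of the combination libraries, and all 6 lay well under the lowest control. CHAF1A changed by −1.06 ± 0.10 in the combination, −1.16 ± 0.10 under almonertinib and −0.07 ± 0.10 under paclitaxel (adjusted p = 3.6e-07, 8.81e-08 and 0.582). CHAF1A in H1975 had 104, 101 and 94 CPM in the combination libraries, 93.4, 83.8 and 69.6 in the almonertinib libraries, 86.6, 84.9 and 73.5 in the paclitaxel libraries and 91.4, 108 and 85.8 in the control libraries, and no treatment stood apart from the controls. Its partner CHAF1B fell by −1.07 under the combination and −0.83 under almonertinib, and SLBP, which binds histone mRNA, by −0.59 and −0.50.

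The G1-S control genes also fell in all 4 cases under the combination and almonertinib. E2F1, an activator, had 35.3, 40.5 and 36.1 CPM in the combination libraries, 60.5, 52.8 and 70.6 in the almonertinib libraries, 77.9, 71.4 and 79.3 in the paclitaxel libraries and 89.7, 76.1 and 80.2 in the control libraries in PC9. The combination libraries were under all almonertinib libraries, which were under all controls, and the paclitaxel libraries overlapped the controls. E2F1 changed by −1.14 ± 0.11 in the combination, −0.42 ± 0.11 under almonertinib and −0.11 ± 0.11 under paclitaxel (adjusted p = 4.15e-07, 0.00285 and 0.409). E2F1 in H1975 had 170, 162 and 155 CPM in the combination libraries, 244, 162 and 197 in the almonertinib libraries, 151, 202 and 212 in the paclitaxel libraries and 261, 228 and 160 in the control libraries, and the groups overlapped. E2F2, a further activator, fell by −0.91 and −0.87 and rose by 0.54 under paclitaxel. E2F8, a repressor that E2F factors induce, had 20.1, 21.9 and 19.1 CPM in the combination libraries, 20.1, 17.4 and 15.9 in the almonertinib libraries, 47.1, 47.7 and 49.1 in the paclitaxel libraries and 37.5, 32.8 and 27.5 in the control libraries in PC9. The paclitaxel libraries were above the controls, and the other 2 treatments were under them. E2F8 changed by −0.68 ± 0.12 in the combination, −0.88 ± 0.12 under almonertinib and 0.55 ± 0.12 under paclitaxel (adjusted p = 0.000179, 1.26e-05 and 0.000857). In H1975 E2F8 had 19.3, 17 and 17.5 CPM in the combination libraries, 8.38, 15.5 and 13.3 in the almonertinib libraries, 12, 12 and 9.97 in the paclitaxel libraries and 9.95, 9.25 and 13.2 in the control libraries. There the combination libraries were above all others, at 0.73 ± 0.22 (adjusted p = 0.0955), which passed the threshold without almonertinib library 1 (0.73 ± 0.16, adjusted p = 0.00979).

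CDC25A, the phosphatase that activates CDK2 at the start of S phase, had the lowest log2 fold change of the 56 in the PC9 combination. It had 8.18, 9.11 and 8.1 CPM in the combination libraries, 8.99, 8.79 and 7.64 in the almonertinib libraries, 19.6, 19.3 and 20 in the paclitaxel libraries and 45.2, 33.7 and 32 in the control libraries in PC9. The combination and almonertinib libraries overlapped, the paclitaxel libraries lay well above both, and the controls were the highest. CDC25A changed by −2.13 ± 0.14 in the combination, −2.13 ± 0.14 under almonertinib and −0.92 ± 0.13 under paclitaxel (adjusted p = 6.15e-09, 2.63e-09 and 3.44e-05), so that it was called lower in all 3 comparisons, as were ORC6, GINS4, FEN1 and UHRF1. CDC25A in H1975 had 19.3, 20.2 and 15.8 CPM in the combination libraries, 17.5, 14.4 and 11.1 in the almonertinib libraries, 14.9, 18.4 and 15.4 in the paclitaxel libraries and 16, 18.4 and 15.4 in the control libraries, and all treatments overlapped the controls.

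The CPM of the 56 genes summed to 2156 ± 57.6 in the PC9 combination libraries, 2554 ± 186 in almonertinib, 4099 ± 125 in paclitaxel and 3850 ± 306 in the controls (SD, n = 3 libraries each). In H1975 the sums were 6035 ± 208 in the combination libraries, 6039 ± 1125 in almonertinib, 6174 ± 152 in paclitaxel and 6841 ± 685 in the controls, and every treatment overlapped the controls. The H1975 combination libraries lay wholly under the controls in elongation (1842 to 1926 against 2105 to 2741 CPM), nucleotide supply (738 to 756 against 789 to 928 CPM) and helicase activation (272 to 284 against 289 to 308 CPM), and in the last the almonertinib libraries did too (243 to 280 CPM). By role, the licensing genes of PC9 summed to 767 ± 25.8 CPM in the combination, 895 ± 88.6 in almonertinib, 1495 ± 65.1 in paclitaxel and 1343 ± 130 in the controls. The nucleotide supply genes summed to 296 ± 8.19, 375 ± 45.8, 597 ± 24.1 and 595 ± 27.7 CPM in the same groups, and the chromatin genes to 194 ± 12.1, 186 ± 6.66, 349 ± 21.5 and 355 ± 33.9 CPM. The chromatin genes are thus the 1 role whose sum was not lower in the combination than under almonertinib. Sums are led by the genes with the highest counts.

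**Figure D3:**
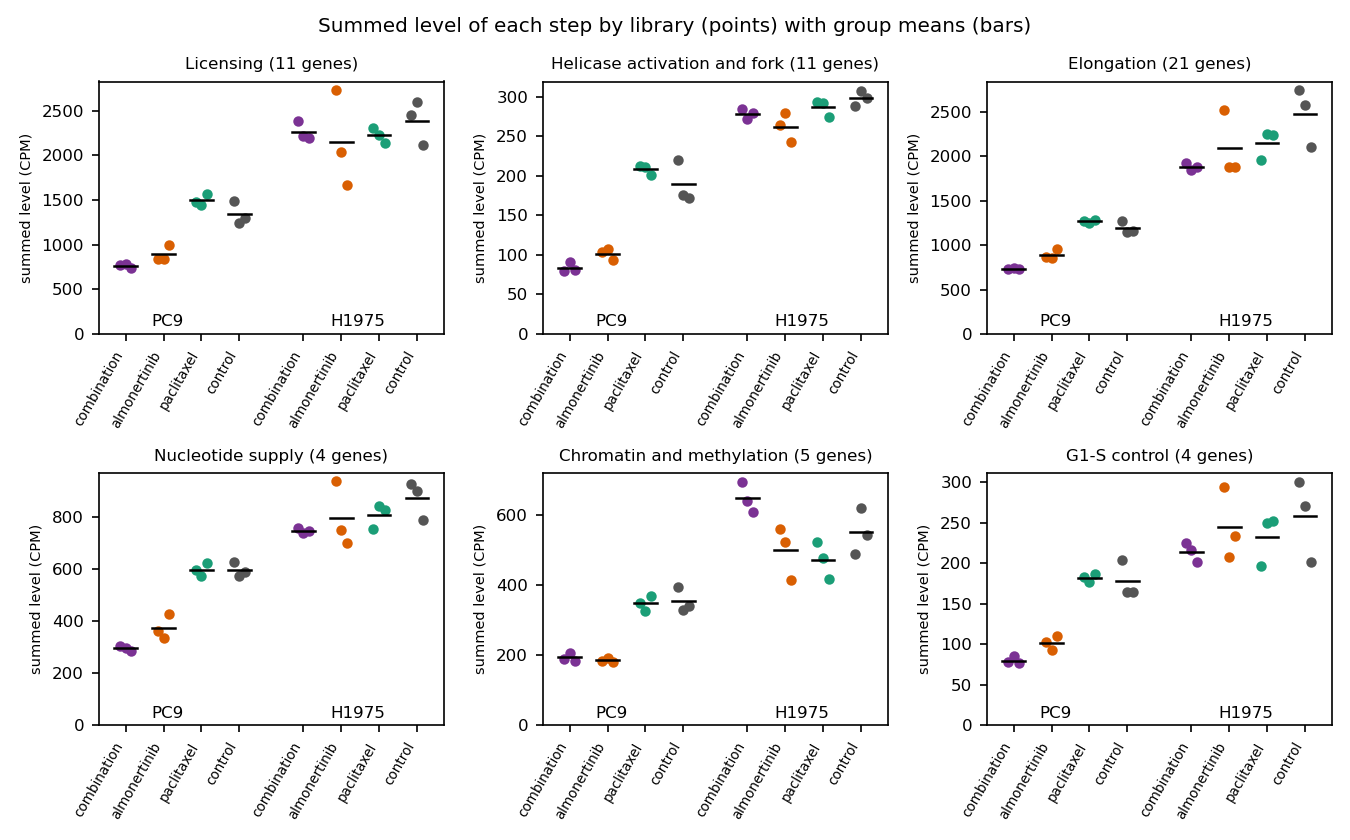
Summed CPM (y axis, from 0) of the genes of each role in each library (points) with group means (bars), in the order combination, almonertinib, paclitaxel and control, for PC9 and then H1975. In PC9 the combination and almonertinib libraries lie under the paclitaxel and control libraries in every role, and in H1975 the combination libraries lie under the controls in elongation, nucleotide supply and helicase activation and overlap them in the other roles.

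Some of the genes were lower in the PC9 combination than under almonertinib alone. In the combination against almonertinib 15 of 56 fell and none rose, with a median of −0.25, where 20.1% of all genes were called (9.74% lower). The genes that fell included MCM5 (−0.51 ± 0.10), MCM6 (−0.73 ± 0.13), PCNA (−0.49 ± 0.09), RRM1 (−0.77 ± 0.14), RRM2 (−0.47 ± 0.10), E2F1 (−0.72 ± 0.11) and POLD2 (−0.42 ± 0.10), and these kept their calls whichever single PC9 library was left out. The other 8 were GMNN, TIPIN, CDC7, WDHD1, RFC3, PRIM1, PRIM2 and RPA3, and each lost its call in at least 1 such fit. The count was 9 without combination library 1 and 9 without combination library 3, and 27 with length and GC offsets, 26 lower and ORC6 higher (0.36, adjusted p = 0.0105), where 26.4% of all genes were called. Those offsets ended the calls of GMNN, RFC3, PRIM1 and PRIM2. Without offsets no chromatin gene was called, and CDC25A was at −0.00 ± 0.14. Against paclitaxel alone, 55 of 56 fell in the combination, with a median of −1.06, where 44.1% of all genes were called (22.4% lower). The exception was POLD2 (−0.15 ± 0.10, adjusted p = 0.245). All 3 combination libraries were under all 3 paclitaxel libraries for each of the 56. The share of all genes that lay so was not counted, so this has no background to be set against.

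The interaction asks whether the combination differs from the sum of the single drugs on the log2 scale. In PC9 27 of the 56 were lower than that sum and 3 higher, with a median of −0.39, where 45.5% of all genes were called (23.4% lower and 22.1% higher). The lowest values belonged to WDHD1 (−2.40 ± 0.28), CDC7 (−2.38 ± 0.39), PRIM1 (−1.92 ± 0.27), TIPIN (−1.77 ± 0.30) and RRM1 (−1.67 ± 0.19), which rose under paclitaxel alone and not in the combination. These are genes of low GC content, 38.1% to 43.0%, and the interaction moved with GC content as the paclitaxel changes did. Its Spearman correlation with GC content was 0.55 across the 56 and 0.46 across all genes tested. Of the 27 lower members 19 had a GC content of up to 48.1%, a range in which 42.9% of all genes were lower, and 8 lay above it, where 7.62% were. With length and GC offsets the correlation over the members was 0.18, and 35 members were lower and 4 higher, where 45% of all genes were called. WDHD1 was then at −1.38 ± 0.20, CDC7 at −1.50 ± 0.33, PRIM1 at −1.12 ± 0.21, TIPIN at −1.11 ± 0.23 and RRM1 at −1.26 ± 0.12. The 3 that were higher were CDC25A (0.92 ± 0.19), ORC6 (0.59 ± 0.16) and GINS4 (0.59 ± 0.17), each lower with either drug alone, with a combination close to almonertinib alone. With these offsets the interaction of RFC3, DSCC1, DBF4 and POLD3 was no longer called (adjusted p = 0.0846, 0.216, 0.0533 and 0.583). In H1975 no member was called by edgeR in the combination against almonertinib (0% of all genes called, 6 members at an unadjusted p under 0.05), in the combination against paclitaxel (0%, 8 members) or in the interaction (0.672%, 7 members). Of all 12345 genes tested, 1230, 1704 and 1267 had an unadjusted p under 0.05 in these comparisons. DESeq2 called 0, 2 and 0 members. Without almonertinib library 1, edgeR called 8 members in the combination against almonertinib, all lower. Among them were RRM1 (−0.78 ± 0.17), CLSPN (−0.78 ± 0.18) and WDHD1 (−1.04 ± 0.25). The share of all genes called there in that fit is not given here, so the 8 have no background to be set against.

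The paclitaxel changes of PC9 moved with transcript GC content. Relative to the mean of the line, the paclitaxel libraries had Spearman correlations of −0.6, −0.61 and −0.431 between a gene's deviation and its GC content, against 0.17, 0.203 and 0.389 in the controls. Across the 56 genes the change under paclitaxel had a Spearman correlation of −0.50 with GC content, and across all genes tested it was also −0.50 (across genes, which share their libraries and are not replicates). Of the 28 members with a GC content of up to 48.1%, 18 rose, where 47.1% of all genes in that range did, and of the 28 above it 4 rose, where 10.6% of all genes did. With the length and GC trend of each library removed, the correlation over the members was −0.13, and 26 members rose and 7 fell. The share of all genes called in that fit is not given here, and without offsets 55% were called. RFC1 remained at 0.94 ± 0.10 under paclitaxel and 0.55 ± 0.10 under the combination with these offsets, and WDHD1 at 0.82 ± 0.14 under paclitaxel but 0.33 ± 0.15 under almonertinib (adjusted p = 0.0654). Under paclitaxel CDC7 was at 0.74 ± 0.23, PRIM1 at 0.77 ± 0.15 and DBF4 at 0.34 ± 0.12, against 1.34, 1.21 and 0.89 without offsets. RFC3 (0.08 ± 0.11), MCM10 (0.29 ± 0.16), POLD3 (0.10 ± 0.08), POLD2 (−0.04 ± 0.05), FEN1 (−0.13 ± 0.08), UHRF1 (−0.17 ± 0.09) and RRM2 (0.16 ± 0.07) were no longer called. Under almonertinib, offsets ended the calls of POLA2 (−0.27 ± 0.13), SLBP (−0.17 ± 0.12) and RRM1 (0.19 ± 0.08). Under the combination, offsets ended the calls of RPA3 (−0.18 ± 0.10) and RFC4 (−0.28 ± 0.12), and CDC6, CDC45, GINS2, FEN1, RRM2, UHRF1 and CDC25A still fell, by −1.15 ± 0.08 (FEN1) to −2.01 ± 0.13 (CDC25A). The part of GC content in the paclitaxel result was not tested further.

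**Figure D4:**
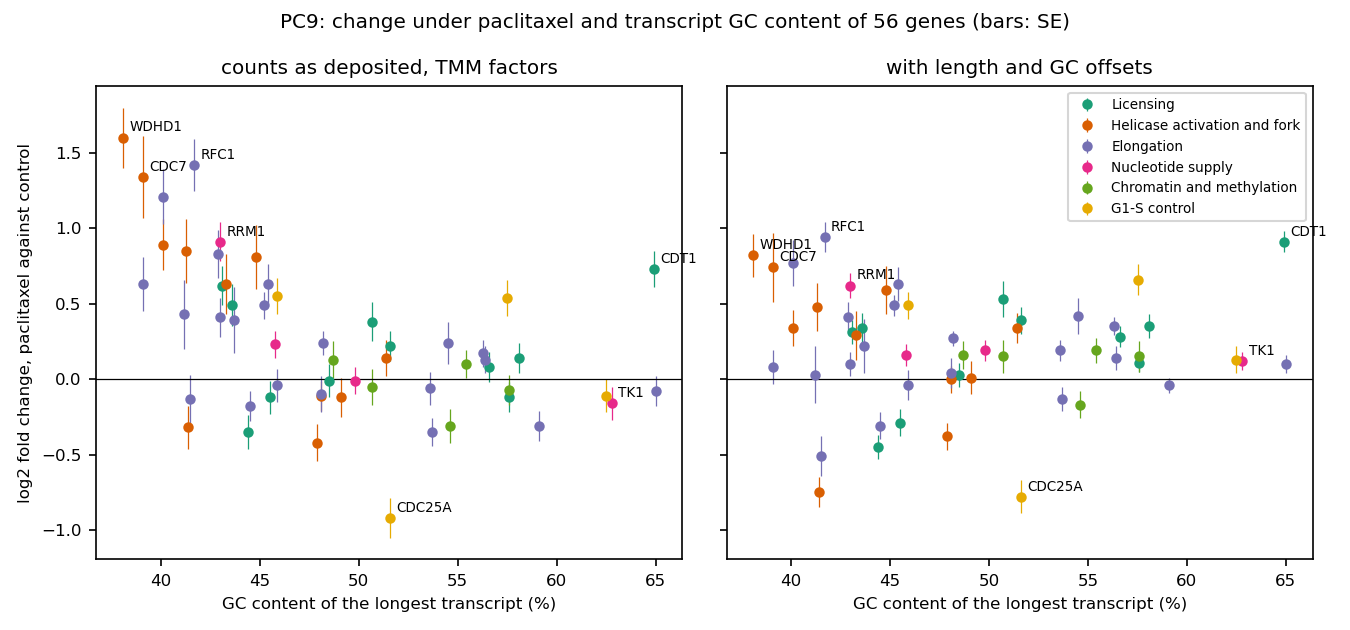
Log2 fold change under paclitaxel against control in PC9 (y axis) against transcript GC content in percent (x axis) of the 56 genes, without (left) and with (right) length and GC offsets. Bars are rough standard errors and colours mark the roles. All points are filled, whether called or not. Without offsets the values fall with GC content (Spearman −0.50), and with offsets the slope is smaller (−0.13).

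Members with an E2F word in the promoter window and members without one overlapped in their changes. In the PC9 combination, 22 of the 23 with a word fell, with a median of −1.02 and a range of −2.13 to 0.16, and of the 25 without a word 19 fell and 1 rose, with a median of −0.82 and a range of −1.70 to 0.71. Under almonertinib 18 of 23 with a word fell and none rose (median −0.83), and without a word 13 of 25 fell and 3 rose (median −0.50). CDT1, whose window is printed above, is the member with a word that did not fall in the combination. These counts describe the windows and were not tested.

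The response of the genes differed between the lines. For the combination against control, PC9 minus H1975, 31 of the 56 were called lower and 1 higher in a fit of all 24 libraries, with a median difference of −0.82, where 18% of all genes were called (11% lower and 6.99% higher). The differences were −2.29 ± 0.24 for CDC25A, −1.69 ± 0.19 for CDC45, −1.66 ± 0.21 for UHRF1 and −1.49 ± 0.16 for RRM2, and 1.17 ± 0.33 for RFC1, the 1 that was higher. For almonertinib 26 were called lower and none higher, with a median of −0.51, where 16.6% of all genes were called (11% lower and 5.53% higher). CDC25A (−1.93 ± 0.24), UHRF1 (−1.25 ± 0.21) and GINS2 (−1.22 ± 0.25) are examples. Without H1975 almonertinib library 1, 25 were called lower and CDT1 (0.66 ± 0.20, adjusted p = 0.0215) and POLD2 (0.70 ± 0.22, adjusted p = 0.0239) higher, where 20% of all genes were called. MCM7 (−0.79 with every library) was then not called (−0.44 ± 0.18, adjusted p = 0.0837), nor were CHAF1B and LIG1. For paclitaxel 11 were called higher and 1 lower, with a median of 0.25, where 17.1% of all genes were called (9.9% higher and 7.21% lower). The highest were WDHD1 (1.62 ± 0.43) and RFC1 (1.62 ± 0.32) and the 1 lower was CDC25A (−0.87 ± 0.23). WDHD1 was not called without H1975 control library 3 (1.33, adjusted p = 0.0555), nor CDC25A without PC9 control library 1 (−0.67, adjusted p = 0.0539). The paclitaxel count was 6 without H1975 control library 3, 6 without H1975 paclitaxel library 2, 7 without H1975 paclitaxel library 3, 7 without PC9 control library 2, 6 without PC9 control library 3 and 7 without PC9 paclitaxel library 2. It was 20 with length and GC offsets. The shares of all genes called in these fits are not given here. The doses of the single drugs differed between the lines, so line and dose cannot be told apart.

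The lines also differed in level. The control libraries of H1975 had a higher summed CPM of the 56 genes than those of PC9, as given above, though each line was scaled on its own. In H1975 controls POLD2 led the members with 630 CPM per kb, followed by TK1 with 311 and MCM7 with 310. At the low end CDC7 had 0.784 CPM per kb in H1975 controls and 0.753 in PC9 controls, where WDHD1 was lowest with 0.693. The neighbours TK1 and MCM7 in H1975 controls overlapped once their spread over libraries is considered.

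Other genes of the same processes moved less uniformly. A list of 46 further replication and G1-S genes had 45 tested in PC9, where 22 fell and 3 rose under the combination (median −0.42). Under almonertinib 16 fell and 10 rose (median −0.18), and under paclitaxel 5 fell and 28 rose (median 0.50). In these comparisons 50.7%, 56.7% and 55% of all genes tested were called. Of all genes 26%, 27.8% and 28% were lower and 24.7%, 28.9% and 27% higher. Under paclitaxel 47.1% of all genes with a GC content of up to 48.1% were higher, and 10.6% of those above it. The list was not split by GC content, and the GC trend of the paclitaxel libraries was not removed from its values. The part of that trend in these changes was not tested. Under the combination CDCA7 (−1.61 ± 0.15), the polymerase epsilon subunit gene POLE3 (−0.91 ± 0.10) and TIMELESS, the partner of TIPIN, (−0.90 ± 0.10) fell, and SAMHD1, which breaks down deoxynucleotides (1.28 ± 0.14), RBL2, an RB relative that represses E2F targets (0.88 ± 0.15), and RRM2B (1.17 ± 0.36) rose. Under almonertinib CCNE1, the cyclin of CDK2, (−2.0 ± 0.16), POLE3 (−1.0 ± 0.10) and the firing factor gene TICRR (−1.0 ± 0.10) fell, and SAMHD1 (2.41 ± 0.14), TOP2A (1.30 ± 0.20) and RBL2 (0.93 ± 0.15) rose. Under paclitaxel DTYMK (−0.58 ± 0.11), CCNE1 (−0.70 ± 0.15) and CHTF18 (−0.36 ± 0.12) fell, and SAMHD1 (1.98 ± 0.14), TOP2A (1.24 ± 0.20) and the checkpoint gene TOPBP1 (1.15 ± 0.18) rose. In H1975 the 1 gene of this list that was called against control was SAMHD1, which rose under almonertinib (1.22 ± 0.25).

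SAMHD1 had 41.2, 55.3 and 47.6 CPM in the combination libraries, 127, 106 and 82.1 in the almonertinib libraries, 80.3, 73.3 and 80.7 in the paclitaxel libraries and 19.5, 20.9 and 19.1 in the control libraries in PC9. It was thus lowest in the controls and highest under almonertinib alone. SAMHD1 in H1975 had 19.5, 19.1 and 18.9 CPM in the combination libraries, 18, 34.8 and 32.7 in the almonertinib libraries, 28.8, 16.3 and 19.7 in the paclitaxel libraries and 11.3, 11 and 14.5 in the control libraries, with every treated library above every control. Of 12 mitosis genes 11 were tested in PC9. Under the combination 6 fell and none rose, under almonertinib 5 fell and 4 rose, and under paclitaxel 5 fell and 6 rose. The shares of all genes called were 50.7%, 56.7% and 55% in the same comparisons. The GC trend of the paclitaxel libraries was not removed from the mitosis values either, and its part in them was not tested. CCNB1, the mitotic cyclin, fell by −0.86, −0.45 and −0.89 in these 3, while KIF11, the spindle motor, rose under almonertinib (1.08 ± 0.18) and paclitaxel (1.33 ± 0.18) and TTK, a spindle checkpoint kinase, likewise (1.02 ± 0.24 and 1.39 ± 0.24). AURKA and PLK1 fell by −0.95 and −0.83 under the combination. In H1975 no mitosis gene was called against control by edgeR, and none had an unadjusted p under 0.05.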

How the data were processed

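The 24 libraries were made from total RNA; per the labels, TRIzol served for extraction and a SMART-RNAseq kit for library construction. The authors deposited 1 table of raw read counts, whole numbers per gene without normalisation. Per the submitters' processing notes HISAT2 2.2.1, HTSeq and GRCh38 were used. The HTSeq version, its settings, the annotation and the counted strand are not given in the sources used here. All columns were used. Symbols were matched for 19623 of 19702 genes, and transcript length and GC content for 19603. Promoter windows are RefSeq's on GRCh38.p14.

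Each line was fitted on its own (12 libraries) in edgeR 4.0.16 under R 4.3.3, with filterByExpr (12796 genes in PC9, 12345 in H1975), TMM factors (0.856 to 1.15), the quasi-likelihood test with 1 term per group, and two-sided p-values adjusted by Benjamini-Hochberg over all genes of a comparison. Genes with an adjusted p under 0.05 were called. Differences between lines came from 1 model of the 24 libraries together (13380 genes). This made 15 comparisons. The standard error is the log2 fold change divided by the square root of its F statistic, an approximation. The scripts were tested on simulated data.

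The members, the steps and the lists were chosen with earlier results of these data known. Values in every library are given for 25 members: in each step those with the smallest p in the combination of either line, and E2F1, PCNA, MCM2, CDC6, CDT1, RRM2, TYMS and CDC25A. Members called in opposite directions could be named too, and RFC1 and WDHD1 were chosen after their values were seen. From the lists up to 3 called genes per direction are named.

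Alternatives were RLE factors, other filters, DESeq2 1.42.0, a block for the repeat number, offsets for the trend of each library on transcript length and GC content (splines with 5 degrees of freedom), other sets of libraries in the fit and leaving out each library. Fits without the libraries that stood apart were added after the data were seen. The labels do not say what a repeat number marks. The deviations of libraries with the same number had correlations over 0.1 in every pair for PC9 almonertinib with control (0.163, 0.136 and 0.473), PC9 paclitaxel with control (0.143, 0.143 and 0.163) and H1975 combination with control (0.135, 0.194 and 0.397), and not in the other pairs of groups compared. For the first 3, block values stand beside each call that they change.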

Additional observations from a re-analysis of the deposited data

Results flagged for a closer look

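The values listed here are differences between the lines that passed a test of the difference itself, PC9 minus H1975 on the log2 scale in the edgeR fit of all 24 libraries. Line and dose cannot be told apart in them.

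For the combination 32 of the 56 genes passed. Among the genes whose libraries are printed above, the difference was −1.29 for MCM4, −1.11 for MCM7 and −1.40 for CDC6 in licensing, and −1.69 for CDC45 and −1.54 for GINS2 in helicase activation. In elongation it was −0.94 for PCNA, −1.37 for RFC5 and −1.12 for FEN1. In nucleotide supply it was −1.49 for RRM2 and −1.39 for TYMS, and in chromatin −1.66 for UHRF1, −1.09 for DNMT1 and −1.14 for CHAF1A. In G1-S control it was −0.73 for E2F1, −1.42 for E2F8 and −2.29 for CDC25A. Against its own control E2F8 fell in the PC9 combination (−0.68) and was at 0.73 in the H1975 combination, which edgeR did not call (adjusted p = 0.0955). The call of E2F1 ended in 12 of the 24 fits that each left out 1 library, with differences of −0.89 to −0.55 over all 24 (−0.55, adjusted p = 0.105, without H1975 control library 3).

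For almonertinib 26 passed. The difference was −0.85 for MCM4, −0.79 for MCM7, −1.03 for CDC6, −1.15 for CDC45 and −1.22 for GINS2. It was −0.51 for PCNA, −1.05 for RFC5, −0.89 for FEN1, −1.0 for RRM2 and −0.92 for TYMS. It was −1.25 for UHRF1, −0.77 for DNMT1, −0.96 for CHAF1A, −1.09 for E2F8 and −1.93 for CDC25A. The call of PCNA ended in 19 of the 24 fits without 1 library (−0.62 to −0.38, and −0.49, adjusted p = 0.067, without PC9 almonertinib library 3) and that of MCM7 in 5 (−0.95 to −0.44). MCM7 was lost without H1975 almonertinib library 1 (−0.44 ± 0.18, adjusted p = 0.0837) or H1975 control library 3 (−0.68, adjusted p = 0.0658), which both stood apart, and without those 2 and H1975 paclitaxel library 1 it was at −0.33 (adjusted p = 0.103). CDT1 (0.66 ± 0.20) and POLD2 (0.70 ± 0.22) were called higher without that almonertinib library.

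For paclitaxel 12 passed. CDT1 (0.88), TIPIN (0.94), CLSPN (0.95) and RRM1 (1.09) were higher in PC9 relative to control than in H1975, and CDC25A (−0.87) lower. In the 24 fits that each left out 1 library the call ended in 14 for CLSPN (0.82 to 1.15), 9 for TIPIN (0.81 to 1.13), 4 for CDT1 (0.78 to 1.03) and 1 for CDC25A (−0.98 to −0.67). Without H1975 control library 3 CLSPN was at 0.83, adjusted p = 0.135, and TIPIN at 0.89, adjusted p = 0.0821, and without H1975 paclitaxel library 1 TIPIN was at 0.86, adjusted p = 0.055. The paclitaxel libraries of PC9 also had the GC trend given above, whose part in these differences was not tested. Groups of 3 libraries are too small for a test of single outlying libraries.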

How the results depend on the processing

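Leaving out 1 library at a time gave 45 to 51 called members in the PC9 combination against control, 38 to 42 under almonertinib, 22 to 31 under paclitaxel, 9 to 22 in the combination against almonertinib, 54 to 55 against paclitaxel and 26 to 33 in the interaction. In H1975 it gave 0 to 6 in the combination against control, 0 to 1 under almonertinib, 0 under paclitaxel, 0 to 8 in the combination against almonertinib, 0 to 3 against paclitaxel and 0 to 1 in the interaction. Between the lines it gave 28 to 38 for the combination, 20 to 30 for almonertinib and 6 to 18 for paclitaxel. Length and GC offsets moved the PC9 combination against almonertinib to 27 called members of 56 from 15 (26 lower and 1 higher; 27 with the replicate block, 30 also without the PC9 almonertinib library that stood apart), and the fit of all 24 libraries gave 7 and the fit of the 2 groups 9. The same offsets gave 9 in the H1975 combination, 1 under almonertinib and 1 under paclitaxel, and with the replicate block 7 and 1 in the first 2. They gave 20 for the paclitaxel difference between lines, with or without the block, and 20 without the PC9 library. DESeq2 gave 2 in the H1975 combination against control and 2 against paclitaxel, the fit of all 24 libraries 3 and 3, and the fits of the groups compared 8 and 7. For most of the counts given so far in this section, the share of all genes called in the same fit is not given. Where it is not, a changed count of members cannot be told apart from a changed number of calls over all genes. Without the 3 H1975 libraries that stood apart, which by its construction narrows the spread, the H1975 counts were 14 for the combination, 21 for almonertinib, 2 for paclitaxel, 28 for the combination against almonertinib, 23 against paclitaxel and 30 for the interaction, and the paclitaxel difference between lines was 22. Of all genes that fit called 34.9%, 45.4%, 8.83%, 34.3%, 33%, 32.9% and 28.1% in the same order. The shares 14, 21 and 2 of 56 are below those of all genes, and 28, 23, 30 and 22 of 56 are above them. In PC9, TYMS under paclitaxel turned from −0.01 to 0.19 with offsets, 0.20 with the replicate block and 0.19 without the PC9 library, and the DNMT1 interaction from 0.06 to −0.30 in that last fit. Without the 3 H1975 libraries RRM1 under almonertinib turned from −0.06 to 0.38 and CDT1 in the combination against almonertinib from −0.03 to 0.29. Most members called by that fit under almonertinib were lower, such as MCM2 (−0.66, adjusted p = 0.0011) and E2F1 (−0.45, adjusted p = 0.00457). Some were higher, such as MCM6 (0.67, adjusted p = 0.000252) and WDHD1 (0.70, adjusted p = 0.0113). The causes were not tested. The replicate block moved no count by more than 1.5 times on its own. Over the shown genes and settings, 8647 values kept their side of the threshold, 270 passed it newly and 161 no longer did. A further 6 that were called in at least 1 of the fits compared reversed direction. Direction was not compared for values called in neither fit, so the 8647 may hold changes of sign among them. Low raw counts limit TIPIN, DSCC1, POLE2 and CDC7.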
